A study of Mus musculus with 24 samples.

Results

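The transcripts described here are those of 9 dual-specificity phosphatases that act on mitogen-activated protein (MAP) kinases, Dusp1, Dusp4, Dusp5, Dusp6, Dusp7, Dusp8, Dusp10, Dusp14 and Dusp16. They were taken by symbol from the 49568 gene symbols of the count tables, and all 9 passed the filter on low counts that left 20187 genes for testing. Poly(A) RNA was sequenced from single hippocampi of naïve male Aged mice, 21 to 23 months old, with 6 mice in each of 4 groups. WTSH mice were wild type (WT) in standard housing, and WTEE mice were WT moved at 18 months to an enriched environment. This was a large rat cage with more cage mates, a running wheel, tubes, toys and a ladder. KDSH and KDEE mice were kept in the same housing conditions but were homozygous for MSK1 KD, a kinase-dead point mutation in the endogenous Rps6ka5 gene that is present in every cell of the body. WT and MSK1 KD mice were bred as separate lines on a C57-Bl/6J background. The study left out samples 4 and 7 of WTSH and sample 6 of KDSH, so that 4 WTSH, 6 WTEE, 5 KDSH and 6 KDEE libraries entered the tests and the others are given apart.

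MAP kinases are switched on by phosphorylation of a threonine and a tyrosine, and dual-specificity phosphatases remove both phosphates. Dusp1, Dusp4 and Dusp5 encode nuclear enzymes made on demand after stimulation, Dusp6 and Dusp7 encode cytoplasmic enzymes that prefer ERK, and Dusp8, Dusp10 and Dusp16 encode enzymes that prefer the stress kinases JNK and p38. Dusp14 encodes a small atypical enzyme without the MAP kinase binding domain of the others. ERK and p38 activate MSK1, a nuclear kinase that phosphorylates the transcription factor CREB and histone H3, so the phosphatases act upstream of the enzyme that is mutated here. In neurons Dusp1, Dusp5 and Dusp6 are known as activity-induced genes.

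The 250 bases before the RefSeq start of 4 members are shown because 3 of them, Dusp1, Dusp5 and Dusp6, are the members that varied most closely with immediate early genes in these libraries, and the fourth, Dusp8, carries the motif of CREB without doing so (the choice was made after their values were seen). Capitals mark the cAMP response element (CRE, TGACGTCA, the same on both strands), its shorter core (TGACG on either strand, counted also inside a full CRE) and the CArG box bound by serum response factor, which is also the same on both strands. The sequences are from RefSeq on GRCm38.p6, 5′ to 3′ in the direction of the gene.
Dusp1 (chr17:26508473-26508722, minus strand): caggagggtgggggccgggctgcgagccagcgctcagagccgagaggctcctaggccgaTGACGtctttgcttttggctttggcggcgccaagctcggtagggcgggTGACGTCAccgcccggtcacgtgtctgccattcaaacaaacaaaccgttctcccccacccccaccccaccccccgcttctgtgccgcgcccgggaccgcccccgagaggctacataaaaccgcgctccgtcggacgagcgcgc
Dusp5 (chr19:53528895-53529144, plus strand): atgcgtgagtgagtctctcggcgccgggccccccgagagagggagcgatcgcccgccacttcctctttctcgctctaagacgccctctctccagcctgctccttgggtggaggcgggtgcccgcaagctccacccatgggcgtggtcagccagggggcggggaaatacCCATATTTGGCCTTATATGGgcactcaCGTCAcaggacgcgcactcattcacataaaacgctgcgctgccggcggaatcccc
Dusp6 (chr10:99262981-99263230, plus strand): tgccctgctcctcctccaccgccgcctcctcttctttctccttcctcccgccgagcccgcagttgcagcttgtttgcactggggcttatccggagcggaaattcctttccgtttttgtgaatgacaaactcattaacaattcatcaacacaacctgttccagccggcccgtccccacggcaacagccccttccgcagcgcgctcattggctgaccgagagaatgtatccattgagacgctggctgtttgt
Dusp8 (chr7:142095285-142095534, minus strand): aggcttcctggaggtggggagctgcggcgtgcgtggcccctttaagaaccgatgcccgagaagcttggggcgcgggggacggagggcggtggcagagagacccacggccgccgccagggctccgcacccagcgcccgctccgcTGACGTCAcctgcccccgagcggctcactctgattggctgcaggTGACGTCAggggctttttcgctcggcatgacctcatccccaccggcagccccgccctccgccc

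A CRE stood in the windows of 2 of the 8 members with a window in the table. Its copies lay 143 bases before the start of Dusp1 and 107 and 63 bases before that of Dusp8, as shown above. It was found in 1.55% of the 32851 promoter windows of this length. The shorter core was found in 4 members, Dusp1, Dusp5, Dusp8 and Dusp16, and in 17.8% of all windows. The CArG box occurred in Dusp5 alone among the members, as 2 adjacent copies 82 and 72 bases before the start, and in 1.47% of all windows. The windows of Dusp6, Dusp7, Dusp10 and Dusp14 held none of these letters, which says nothing of binding elsewhere.

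The 21 libraries held 27410239 to 71907130 read pairs on genes, with a median of 47549989, and WTEE libraries were the deepest as a group (median 56016403). Reads of structural RNA were followed through 4 genes, Rn18s-rs5, Mir6236, Gm23935 and Lars2, although the annotation lists Mir6236 and Gm23935 as miRNAs and Lars2 as protein-coding. The share of counts on these 4 genes was 0.0329% to 2.48% in the 21 libraries and 5.46% to 22.7% in the 3 left out. All 6 neuronal markers examined were detected in every library, and their mean level was 7.25 to 7.29 log2 CPM (counts scaled to a common library size) in the 4 groups. Counts of the mutated gene Rps6ka5 (MSK1, chr12:100548439-100726983, minus strand) were 1120 ± 101 in WTSH, 1044 ± 190 in WTEE, 1159 ± 21.9 in KDSH and 1141 ± 27.5 in KDEE (mean ± SD of normalised read counts, n = 4, 6, 5 and 6). A point mutation need not alter transcript abundance, so these counts do not check the genotype labels. The authors inspected the aligned reads for the mutation and reported it in the MSK1 KD samples. Normalised read counts are scaled by the trimmed mean of M values (TMM) to the mean library size, and the left-out libraries were scaled together with all 24.

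Levels can be compared between genes only per length, as read pairs per kilobase of exon scaled by library size (FPKM). Dusp8 was the most abundant, at 31 ± 2.02 FPKM (mean ± SD, n = 21), and its lowest library (25.4) lay above the highest library of any other member. Dusp7 followed at 20.4 ± 1.19 and Dusp6 at 16.9 ± 1.84. Dusp14, Dusp5, Dusp1 and Dusp4 lay between 12 and 8.52 FPKM on average. The length used for Dusp5 includes 22.1% shared with an antisense gene, so its level is understated if read pairs there were left out. The ranges of each neighbouring pair from Dusp7 to Dusp4 overlapped. Dusp16 (2.28 ± 0.376) and Dusp10 (2.06 ± 0.353) were the least abundant, overlapped each other, and lay below the lowest Dusp4 library at 3.62. Dusp7 and Dusp8 were also the steadiest between mice, with a coefficient of variation within groups of 6.1% and 7.03%, against 21.3% for Dusp1, the most variable.

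**Figure D1:**
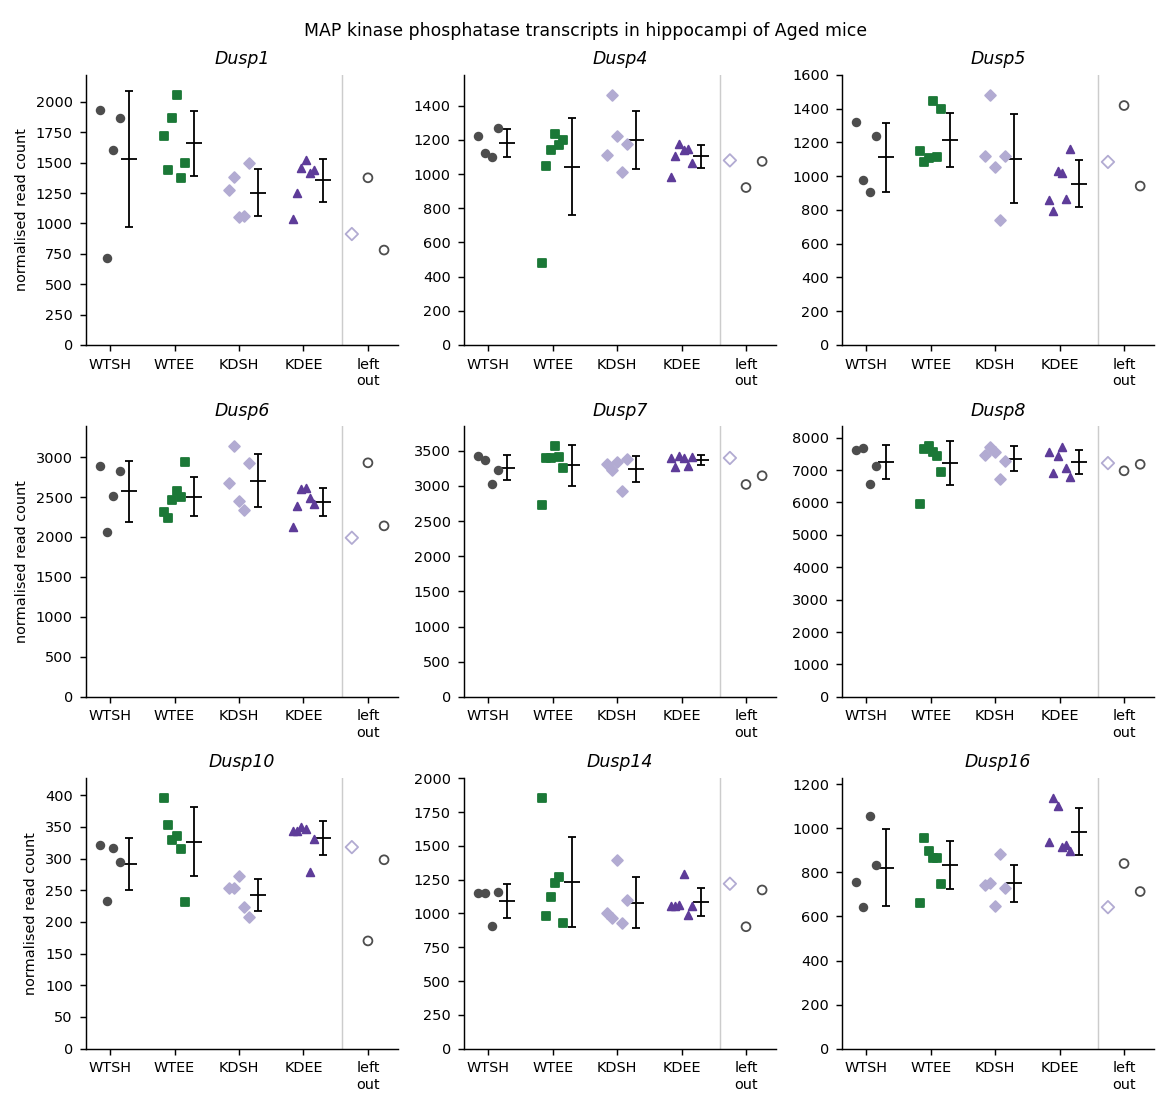
Normalised read counts (y axis) of the 9 phosphatases by group (x axis), 1 symbol per mouse, with the mean and SD of each group to its right and the 3 left-out libraries as open symbols (circles WTSH, diamond KDSH). Dusp7 and Dusp8 differ little between mice, while 1 WTSH library is low for Dusp1 (715) and 1 WTEE library is low for Dusp4 (477).

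No member was called in any of the 7 comparisons between groups, by the quasi-likelihood test of edgeR for which a gene had to change by more than 0.38 on the log2 scale in either direction with a Benjamini-Hochberg adjusted p under 0.05. The Wald test of DESeq2 also called 0 members in each, beside 2 of all genes for WTEE against WTSH, 14 for KDEE against KDSH, 0 for KDSH against WTSH, 118 for WTEE against KDEE, 20 for the interaction, 41 for housing and 0 for genotype. Of all genes tested, edgeR called 0% in each comparison but enriched against standard housing with the genotypes averaged, where it called 1 gene (0.00495%). At an unadjusted p under 0.05, 0 members passed for WTEE against WTSH (6.55% of all genes), 2 for KDEE against KDSH (11.6%), 0 for KDSH against WTSH (1%), 2 for WTEE against KDEE (4.99%) and 1 for the genotype by housing interaction (3.26%). In the averaged comparisons, 2 members passed for housing (18.9% of all genes) and 1 for genotype (1.9%). Median log2 fold changes of the 9 members lay between -0.01 and 0.03 over the 7 comparisons, beside 0 to 0.01 for all genes. In whole tissue, fewer cells of a type and less RNA per cell cannot be told apart, which holds for every value below.

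**Figure D2:**
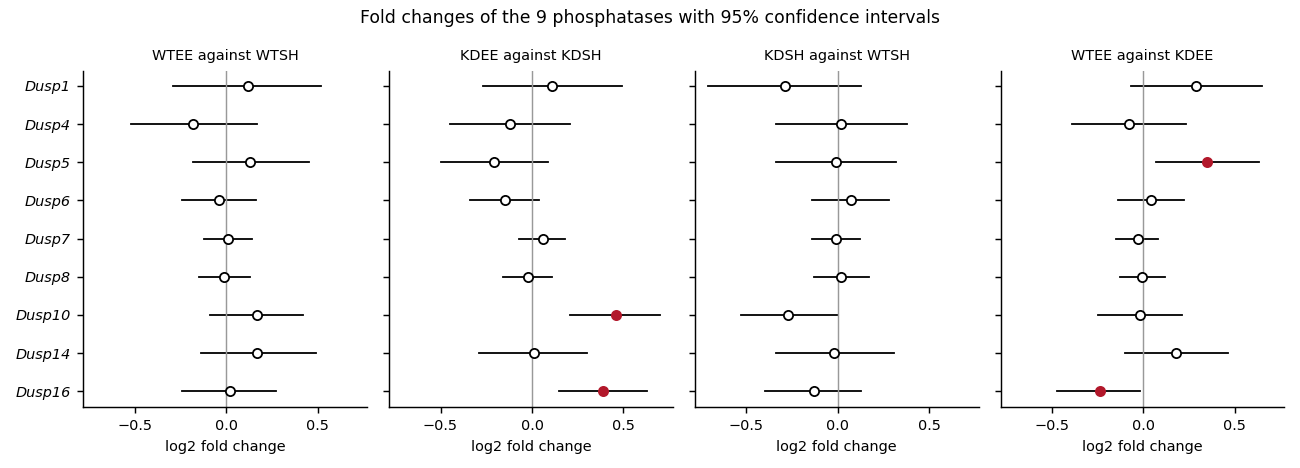
Log2 fold change (x axis) of each phosphatase (y axis) in the 4 comparisons between pairs of groups, with 95% confidence intervals and filled symbols at an unadjusted p under 0.05. Dusp10 (0.46) and Dusp16 (0.39) stand apart for KDEE against KDSH, and the intervals of Dusp7 and Dusp8 are the narrowest.

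The nuclear phosphatases come first. Dusp1 (chr17:26505590-26562128, minus strand), which acts on p38, JNK and ERK, had normalised read counts of 1934, 715, 1604 and 1870 in WTSH samples 2, 5, 19 and 23. In WTEE its counts ran from 1373 to 2061 with a median of 1606. KDSH samples 1, 3, 8, 18 and 24 had 1276, 1385, 1051, 1061 and 1494, and KDEE libraries ran from 1040 to 1524 with a median of 1428. The medians of WTSH (1737) and WTEE lay above those of KDSH (1276) and KDEE, but the groups overlapped and WTSH sample 5 was the lowest of the 21. The left-out libraries had 1376 and 781 (WTSH 4 and 7) and 913 (KDSH 6). With housing averaged, Dusp1 was 0.29 higher in WT on the log2 scale (SE 0.13, 95% confidence interval 0.02 to 0.57, edgeR adjusted p = 1). The difference ranged from 0.23 to 0.41 with each library left out in turn, the highest without WTSH sample 5. With the mean log2 CPM of the immediate early genes listed below as a covariate, it was 0.11 (SE 0.06). This covariate was not centred on the groups, so it also takes out differences between groups in these genes. The 4 structural RNA marks had a mean log2 CPM of 7.97 in WTSH, 10.16 in WTEE, 8.21 in KDSH and 8.01 in KDEE, and with their share as a covariate the Dusp1 difference was 0.22 (SE 0.13). The difference of WTEE against KDEE, 0.29 (SE 0.17), was then 0.15 (SE 0.18). With the uncentred immediate early gene level as the covariate instead, the WTEE against KDEE difference was 0.03.

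Dusp5 (chr19:53529109-53542431, plus strand) encodes a nuclear phosphatase selective for ERK. In GENCODE M21 an antisense gene overlaps 22.1% of its exon length, and counting ignored strand. Read pairs there were left out as ambiguous or, if the annotation used for counting lacked that gene, were counted for Dusp5. Which of these holds was not checked. Its counts were 1323, 975, 905 and 1238 in WTSH samples 2, 5, 19 and 23 and ran from 1086 to 1446 (median 1129) in WTEE. In KDSH samples 1, 3, 8, 18 and 24 they were 1117, 1483, 1053, 741 and 1118, and in KDEE they ran from 796 to 1161 (median 944). KDEE was the lowest group by its median, with values inside the range of the other groups. The left-out libraries had 1418 and 941 (WTSH 4 and 7) and 1084 (KDSH 6). WTEE exceeded KDEE by 0.35 on the log2 scale (SE 0.14, interval 0.07 to 0.63, edgeR adjusted p = 0.705). The difference stayed between 0.29 and 0.41 with each library left out. It was 0.21 with the same uncentred immediate early gene level and 0.3 with the structural RNA share as a covariate. The genotype by housing interaction was 0.34 (SE 0.21, interval -0.09 to 0.77). It was 0.21 without KDSH sample 3 and 0.45 without KDSH sample 18.

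Dusp4 (chr8:34807297-34819894, plus strand), a nuclear phosphatase for ERK and JNK, had group means of 1180 ± 81.4 in WTSH, 1044 ± 285 in WTEE, 1198 ± 169 in KDSH and 1102 ± 70.1 in KDEE. WTEE sample 10 had 477, and the next lowest WTEE library had 1046. Its fold changes ran from -0.18 (WTEE against WTSH, SE 0.17) to 0.02 (KDSH against WTSH, SE 0.17). Without WTEE sample 10 the former was -0.03. None of the 7 comparisons of Dusp4 had an unadjusted p under 0.05.

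Dusp6 (chr10:99263231-99267489, plus strand) encodes the cytoplasmic ERK phosphatase that is itself induced by ERK signalling. WTSH samples 2, 5, 19 and 23 had counts of 2888, 2061, 2510 and 2828, and WTEE libraries ran from 2236 to 2940 with a median of 2479. KDSH samples 1, 3, 8, 18 and 24 had 2680, 3133, 2453, 2332 and 2924, and KDEE libraries ran from 2127 to 2608 with a median of 2453. All 4 groups overlapped. The left-out WTSH samples 4 and 7 had 2928 and 2139 and KDSH sample 6 had 1990. The largest of its differences was KDEE against KDSH, at -0.15 (SE 0.09, interval -0.34 to 0.04, edgeR adjusted p = 0.494).

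Dusp7 (chr9:106368632-106375724, plus strand), the other cytoplasmic ERK phosphatase measured here, had group means between 3240 ± 181 in KDSH and 3367 ± 72.1 in KDEE. Its fold changes lay between -0.04 and 0.06, and its intervals in the 4 comparisons between pairs of groups all lay within -0.15 to 0.18. Dusp8 (chr7:142079490-142095843, minus strand), a JNK and p38 phosphatase strongly expressed in brain, had group means between 7207 ± 679 in WTEE and 7353 ± 392 in KDSH. Fold changes of Dusp8 were between -0.02 and 0.02 in all 7 comparisons, with intervals no wider than -0.18 to 0.21 (the interaction).

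Dusp10 and Dusp16, both phosphatases of JNK and p38, had the largest differences of the 9 members between KDEE and KDSH. Dusp10 (chr1:184013302-184075636, plus strand) had counts of 254, 253, 272, 224 and 208 in KDSH samples 1, 3, 8, 18 and 24. In KDEE its counts ran from 279 to 349 with a median of 344, so that every KDEE library lay above every KDSH library. WTSH samples 2, 5, 19 and 23 had 322, 233, 317 and 294, and WTEE libraries ran from 232 to 395 with a median of 332, overlapping WTSH. These counts rest on 177 to 487 raw read pairs per library. The log2 fold change of KDEE against KDSH was 0.46 (SE 0.12, interval 0.21 to 0.7, edgeR adjusted p = 0.338). KDSH was the lowest group, at -0.27 against WTSH (SE 0.13, interval -0.53 to 0). Enriched mice of both genotypes had similar levels, with -0.02 for WTEE against KDEE (SE 0.11).

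Dusp16 (chr6:134715468-134792625, minus strand) had counts of 741, 752, 649, 883 and 727 in KDSH samples 1, 3, 8, 18 and 24. The KDEE libraries ran from 897 to 1136 with a median of 931, again all above KDSH. In WTSH samples 2, 5, 19 and 23 the counts were 758, 641, 1056 and 832, and in WTEE they ran from 661 to 957 with a median of 866. KDEE exceeded KDSH by 0.39 on the log2 scale (SE 0.12, interval 0.15 to 0.63, edgeR adjusted p = 0.338). The log2 fold change of WTEE against KDEE was -0.24 (SE 0.11, edgeR adjusted p = 0.957). The interaction, the effect of enrichment in WT minus that in MSK1 KD mice, was -0.37 (SE 0.17, interval -0.72 to -0.02, edgeR adjusted p = 1). It was -0.23 without WTSH sample 19 and -0.48 without WTSH sample 5. Dusp10 gave -0.29 (SE 0.17, interval -0.64 to 0.06) for the same interaction.

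Groups that did not overlap were found for 2 of the 9 members in KDEE against KDSH, Dusp10 and Dusp16, where 1.84% of all genes tested did not overlap. None of the members was free of overlap for WTEE against WTSH (0.986% of all genes), KDSH against WTSH (0.644%) or WTEE against KDEE (0.624%). The left-out KDSH sample 6 had 318 counts of Dusp10, within the KDEE range, and 642 of Dusp16, below it. WTSH samples 4 and 7, also left out, had 170 and 298 counts of Dusp10 and 840 and 713 of Dusp16. With all 24 libraries the KDEE against KDSH difference of Dusp10 was 0.38 (SE 0.13) and that of Dusp16 was 0.42 (SE 0.11). With genotypes averaged, enriched mice had 0.31 more Dusp10 (SE 0.09, edgeR adjusted p = 0.179) and 0.21 more Dusp16 (SE 0.08, adjusted p = 0.236) on the log2 scale. DESeq2 gave Dusp10 an adjusted p of 0.0469 there, with a fold change under the threshold of 0.38.

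Marker levels of other cell types in the same libraries are given beside these differences. The summed normalised counts of 8 oligodendrocyte genes ran from 267000 to 385000 in KDSH and from 320000 to 406000 in KDEE (8.56 against 8.86 as mean log2 CPM). With this level as a covariate, chosen after the data were seen, the KDEE against KDSH difference was 0.34 (SE 0.14) for Dusp10 and 0.18 (SE 0.11) for Dusp16. With genotypes averaged, the housing difference was then 0.22 (SE 0.1) for Dusp10 and 0.04 (SE 0.08) for Dusp16. The summed counts of 7 choroid plexus genes ran from 1180 to 4880 in KDSH and from 4080 to 462000 in KDEE. Of the KDEE libraries only samples 12 (462000) and 14 (127000) lay above 5510. With the choroid plexus level as a covariate, the KDEE against KDSH differences were 0.39 for Dusp10 and 0.3 for Dusp16. Sums of 5 blood genes ran from 1740 to 3630 in KDSH and from 3410 to 11400 in KDEE, and their part in the result was not tested. Sums of 4 pituitary genes ran from 58.1 to 98.2 in KDEE. In KDSH they were 11400 in sample 8 and 39.1 to 383 in the other kept libraries. Without KDSH sample 8 the KDEE against KDSH difference was 0.5 for Dusp10 and 0.34 for Dusp16. Of the oligodendrocyte, choroid plexus and blood genes, 0 were absent from any of these libraries.

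**Figure D3:**
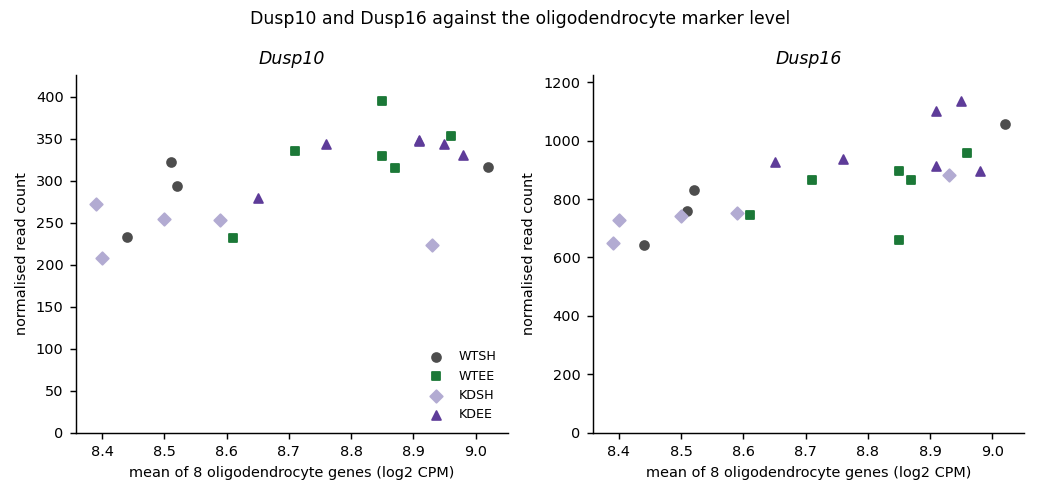
Normalised read counts of Dusp10 and Dusp16 (y axes) against the mean log2 CPM of 8 oligodendrocyte genes (x axis), 1 symbol per mouse of the 21. KDSH libraries of Dusp16 lie between 649 and 883 and KDEE libraries between 897 and 1136, and most KDSH libraries lie to the left of the KDEE libraries.

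Dusp14 (chr11:84048041-84069261, minus strand), the atypical member, had group means of 1092 ± 123 in WTSH, 1231 ± 332 in WTEE, 1079 ± 189 in KDSH and 1085 ± 107 in KDEE. WTEE sample 10 was the highest of the 21 libraries at 1852. Log2 fold changes ran from -0.02 to 0.18, the highest for WTEE against KDEE. Without WTEE sample 10 that value was 0.03, and WTEE against WTSH went from 0.17 to 0.02. None of its 7 comparisons had an unadjusted p under 0.05.

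The members were next compared with 12 immediate early genes (Fos, Fosb, Junb, Egr1, Egr2, Egr4, Arc, Npas4, Nr4a1, Ier2, Btg2 and Sik1), which neurons transcribe within minutes of activity. Their summed normalised counts ran from 19800 to 46200 in WTSH, 30400 to 45400 in WTEE, 27800 to 42100 in KDSH and 22800 to 35100 in KDEE. None of the 12 was called between groups, and their median log2 fold change was 0.25 for WTEE against KDEE and -0.2 for KDEE against KDSH. Within groups their mean log2 CPM, expressed as a deviation from the group mean, varied from -0.83 in WTSH sample 5 to 0.55 in WTSH sample 2. The slope of each gene on this deviation was tested with the 4 group means in the model, so that it compares mice of the same group.

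Dusp1 and Dusp6 rose with the immediate early genes. The slope of Dusp1 was 0.92 log2 units per log2 unit (SE 0.09, interval 0.74 to 1.11, edgeR adjusted p = 3.97e-06), and that of Dusp6 was 0.38 (SE 0.07, interval 0.25 to 0.52, adjusted p = 0.0177). They were 2 of the 9 members, where 12 of all genes tested (0.0594%) were called and 9 of those 12 were part of the score itself. The only other called gene outside the score was Cyr61, a secreted matrix protein gene induced early after stimulation, with a slope of 1.13. The Dusp1 slope remained called with each library left out and ranged from 0.72, without WTSH sample 5, to 0.96. Dusp6 kept a slope of 0.36 to 0.4 but was no longer called without KDSH sample 3, KDEE sample 9 or WTSH sample 2, 5 or 23 (adjusted p = 0.0823, 0.0968, 0.072, 0.376 and 0.0641), with no filter on low counts (0.0579) or with the share of the 4 structural RNA marks as a covariate (0.0868).

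Dusp5 had a slope of 0.51 (SE 0.12, interval 0.26 to 0.75, edgeR adjusted p = 0.317) and was the third member with an unadjusted p under 0.05, where 2.94% of all genes passed. The slopes of the remaining 6 members were 0.24 for Dusp4 (SE 0.17), 0.12 for Dusp10 (SE 0.14), 0.05 for Dusp7 (SE 0.07), 0.04 for Dusp16 (SE 0.14), 0.02 for Dusp8 (SE 0.07) and 0 for Dusp14 (SE 0.16). The intervals of Dusp7 (-0.09 to 0.19) and Dusp8 (-0.14 to 0.17) both ended below the lower bound for Dusp1 and for Dusp6. Of the windows printed above, that of Dusp1 holds 1 copy of the CRE, that of Dusp8 holds 2, and those of Dusp5 and Dusp6 hold none. The Dusp5 window holds the shorter core and 2 CArG boxes. These windows were chosen after the values were seen, and a relation between motifs and slopes was not tested.

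**Figure D4:**
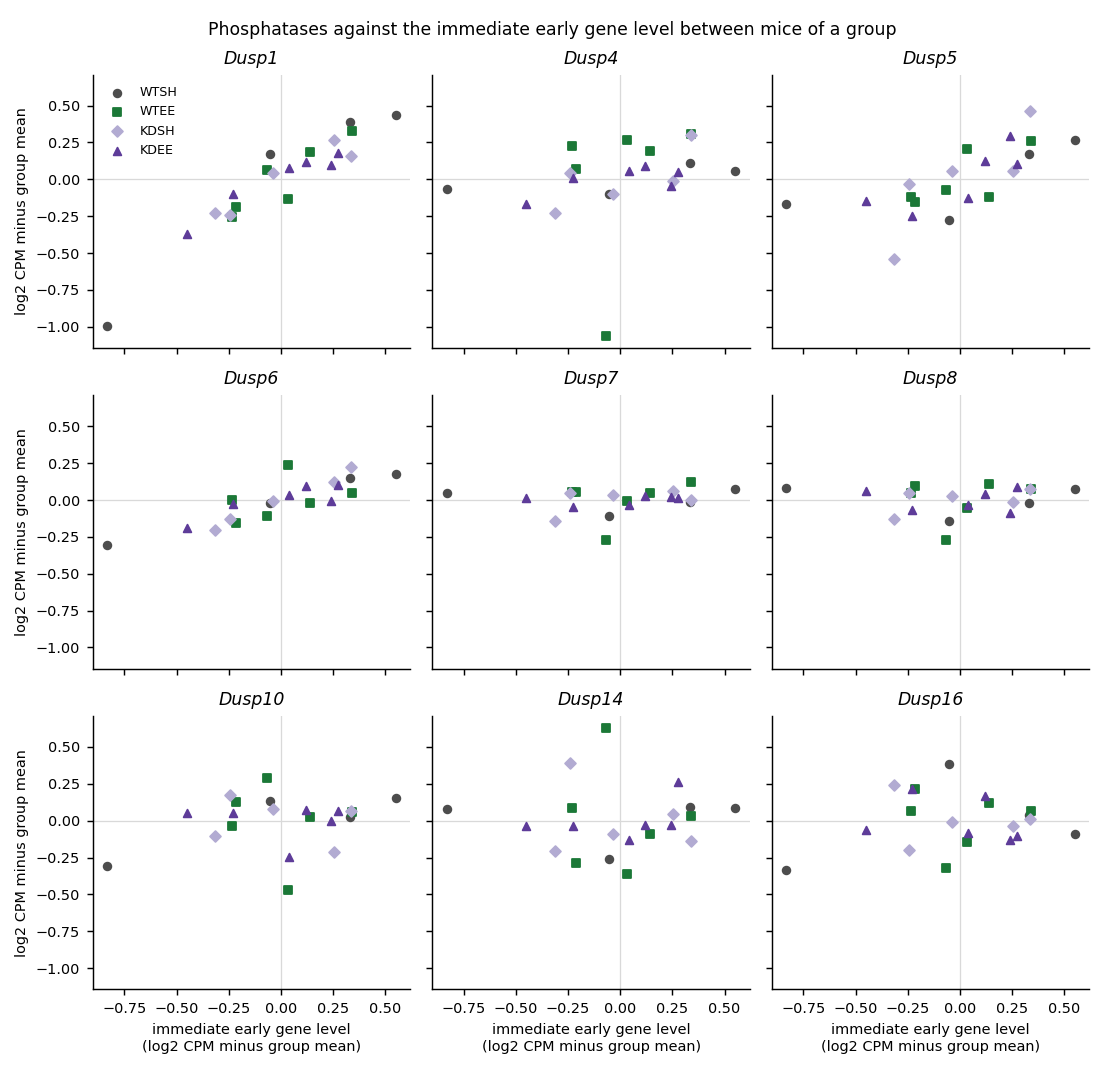
Log2 CPM of each phosphatase minus its group mean (y axis) against the mean log2 CPM of 12 immediate early genes minus its group mean (x axis), 1 symbol per mouse of the 21. Dusp1 (slope 0.92), Dusp5 (0.51) and Dusp6 (0.38) rise from left to right, and the points of Dusp7 and Dusp8 stay level.

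As a description over the same 21 libraries, with no test, Pearson's r and Spearman's rho with the immediate early level were 0.94 and 0.92 for Dusp1, 0.85 and 0.83 for Dusp6, and 0.71 and 0.79 for Dusp5. Without the 2 libraries farthest from the median immediate early level, r was 0.91, 0.78 and 0.76 for these genes. Dusp4 had an r of 0.29 and a rho of 0.53, and r was 0.48 without WTEE sample 10. The other members had r between 0.02 and 0.22. All points share the library's depth and scaling.

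The genes most alike to Dusp1 by Pearson's r of group-centred log2 CPM were Fos (0.96), Cyr61 (0.92), Junb (0.92), Btg2 (0.92) and Npas4 (0.88). Those most alike to Dusp6 were Arc (0.91), Nr4a1 (0.88), Egr2 (0.87), Apold1 (0.87) and Sik1 (0.84). The lists share no gene, and all but Cyr61 and Apold1 belong to the 12 immediate early genes. For the other members the most alike genes were Zfp526 for Dusp4 (0.96), Rbm24 for Dusp5 (0.83), Slc25a44 for Dusp7 (0.96), Pde4a for Dusp8 (0.95), Gm44645 for Dusp10 (0.84), Ttc9b for Dusp14 (0.93) and Gpr37 for Dusp16 (0.91). Gpr37 encodes a receptor enriched in oligodendrocytes. WTEE sample 10 stood apart for Dusp4 (-1.06 log2 units from its group mean) and Dusp14 (0.63). It was also the library farthest from its group mean for Dusp7 (-0.27) and Dusp8 (-0.27). The r values of this paragraph were not computed without it.

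Among themselves the members formed 36 pairs, of which 5 had an r over 0.7. Dusp7 and Dusp8 were the closest (r = 0.88, rho = 0.72, and r = 0.79 without WTEE sample 10). Dusp1 and Dusp6 had an r of 0.74 and a rho of 0.67, and Dusp5 and Dusp6 an r of 0.74 and a rho of 0.79. Without the 2 libraries farthest from the median of Dusp1 (WTSH sample 5 and KDEE sample 9), r was 0.58 for the former pair. Without the 2 farthest from the median of Dusp5 (KDSH samples 3 and 18), r was 0.65 for the latter. The r of Dusp4 with Dusp7 (0.79) and with Dusp8 (0.72) fell to 0.48 and 0.43 without WTEE sample 10. The most negative r was that of Dusp14 with Dusp16 (-0.59, rho = -0.5).

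**Figure D5:**
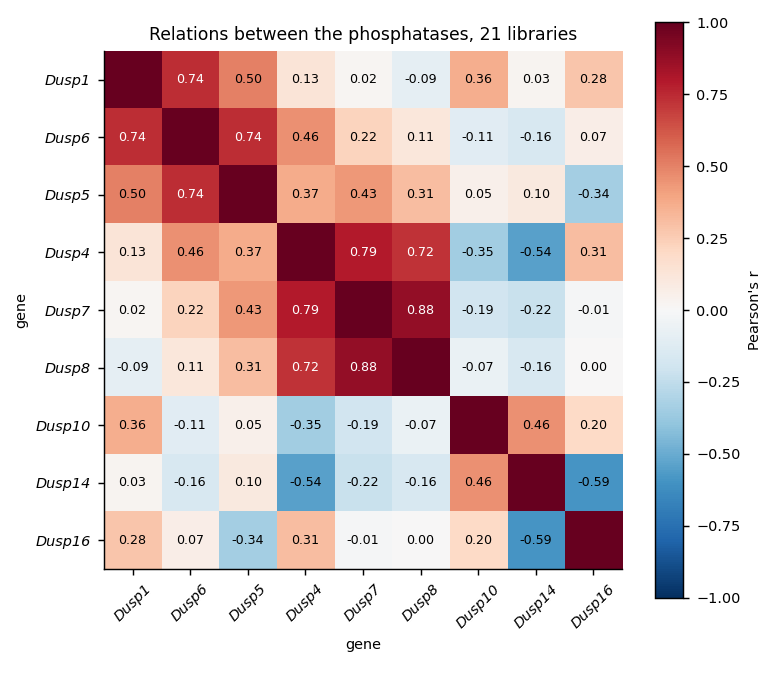
Pearson's r between each pair of phosphatases (both axes) over 21 libraries, from log2 CPM minus the group mean, on a colour scale from -1 to 1. Dusp1, Dusp5 and Dusp6 are positively related (0.5 to 0.74), as are Dusp4, Dusp7 and Dusp8 (0.72 to 0.88, and 0.43 to 0.79 without WTEE sample 10).

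The kinases and inhibitors around these phosphatases were counted as lists, and 0 genes of any list were called in the 7 comparisons. The 10 genes of the ERK cascade had median log2 fold changes between -0.02 and 0.01. The 13 genes of the p38 and JNK cascades had medians between -0.06 and 0.02, the 5 MSK and RSK kinases between -0.1 and 0.05, and the 7 Sprouty, Spred and Rasa1 genes that restrain Ras between -0.1 and 0.02. With genotypes averaged, the smallest p of the stress list was that of Mapk14, which encodes p38 alpha, at -0.12 in enriched mice (SE 0.03, edgeR adjusted p = 0.179), followed by Map2k6 at -0.18 (SE 0.07), an activator of p38. In the ERK list Braf, a kinase that Ras activates, was at -0.13 (SE 0.06). The genes of smallest p were Rps6ka3 (-0.14, SE 0.06) and Rps6ka1 (0.13, SE 0.06) among the MSK and RSK kinases, and Spry1 (0.18, SE 0.08) and Spred2 (-0.16, SE 0.09) among the Ras inhibitors. The edgeR adjusted p of the genes named here ran from 0.179 to 0.294. At an unadjusted p under 0.05, 2 stress genes, 2 ERK genes, 1 MSK or RSK kinase and 1 Ras inhibitor passed. In the same comparison 18.9% of all genes passed.

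The 12 other dual-specificity phosphatases tested had 0 calls, and median log2 fold changes between -0.01 and 0.07. With genotypes averaged, 3 of them were higher and 1 was lower in enriched mice at an unadjusted p under 0.05, where 18.9% of all genes passed. Dusp11, an RNA phosphatase despite its name, had the smallest p (-0.28, SE 0.08, edgeR adjusted p = 0.179), followed by Dusp28 (0.21, SE 0.08, adjusted p = 0.224).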

How the data were processed

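The authors removed adapters from paired reads (Skewer), used STAR 2.5 for alignment to GRCm38 and HTSeq 0.6.1p1 for counting, taking unique alignments on either strand. The deposited values are raw read-pair counts per gene symbol, 1 table per mouse. The 5 HTSeq summary lines of each table, with read pairs outside genes or ambiguous, stayed out of the totals. No mouse number is shared between groups, and no samples were paired. The 6 samples of a lane are not named in the sources used here, so a lane effect could not be examined.

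Group means were compared by edgeR 4.0.16 under R 4.3.3 with its quasi-likelihood F test (TMM, filterByExpr, all 4 groups in 1 model, Benjamini-Hochberg over 20187 genes). The called fold threshold of 0.38 is that of the study, and SE is the fold change divided by the square root of F. Log2 CPM used a prior count of 2. Each mouse is 1 replicate, although housing was given by cage and mice of a cage may not be independent. Which mice shared a cage is not named in the sources used here, so effects of cage and housing cannot be told apart. Without molecular identifiers, PCR copies are counted too. Alternatives were DESeq2 1.42.0, its size factors in edgeR, no filter, at least 10 counts in every library, no fold threshold, all 24 libraries, only the groups compared, a robust fit, marker levels as covariates, a shorter immediate early list and leaving out each library. The oligodendrocyte list and the oligodendrocyte and immediate early covariates were chosen after seeing the data. Covariates in the comparisons between groups were not centred on group means, unlike the level used for the slopes. Tests were checked first on simulated counts.

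Members and lists were chosen with earlier results of these data known. Named are the 9 members, Rps6ka5, the 2 genes of smallest p of a list (1 of them is not reported here), and by r the most alike gene of each member (5 for Dusp1 and Dusp6). Cyr61 also falls under its slope and was named after its value was seen. Gene models and exon lengths are from GENCODE M21 (GRCm38) and promoter windows from RefSeq, so that gene starts can differ. Figures were drawn with matplotlib 3.10.9.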

Additional observations from a re-analysis of the deposited data

Results flagged for a closer look

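Of 36 groups of values examined (9 genes in 4 groups), 6 held a library whose gap to the nearest other library exceeded Dixon's 95% limit, a rule that chance meets in about 1 of 20 groups. WTEE sample 10 accounts for 3 of them. It was the lowest WTEE library for Dusp4 (477 normalised read counts, next 1046) and Dusp7 (2723, next 3260), and the highest for Dusp14 (1852, next 1272). Dusp10 was low in KDEE sample 20 (279, next 331), Dusp14 was low in WTSH sample 19 (907, next 1150), and Dusp14 was high in KDEE sample 15 (1295, next 1062). WTEE sample 10 also stood apart outside the members. Of the 21 libraries it had the lowest mean log2 CPM of the MSK and RSK kinases (4.77) and of the Ras inhibitors (4.99). Its summed counts of 4 endothelial genes were the highest (8630). Those of the choroid plexus genes (244000) lay below only WTEE sample 13 and KDEE sample 12. Its oligodendrocyte level (8.85) lay within the range of the other WTEE libraries. Whether tissue composition accounts for its flagged values was not tested.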

How the results depend on the processing

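No member was called in any of the 7 comparisons between groups under any alternative run. Over all members and comparisons, 736 of 738 values under other settings and 1507 of 1512 with each library left out kept their side of the threshold, and the other 2 and 5 were no longer called. The sign turned in 21 and 57 of them, in each case with a value within its SE and from a log2 fold change of at most 0.12 and 0.13 in size. Dusp5 for housing with genotypes averaged went from -0.04 to 0.12 with the oligodendrocyte covariate, and without WTSH sample 5 WTEE against WTSH went from 0.12 to -0.12 for Dusp1 and from 0.02 to -0.08 for Dusp16. All 7 losses concern the slope of Dusp6 on the immediate early genes, so that the members called on that slope fell from 2 to 1 with no filter on low counts and with the structural RNA covariate, and ranged from 1 to 2 over the 21 leave-one-out fits. The fits that lost it were those without KDSH sample 3, KDEE sample 9 and WTSH samples 2, 5 and 23. No paired analysis was possible because the groups share no replicate numbers. Dusp10 rested on the fewest counts, down to 177 per library.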
